A study of Mus musculus with 6 samples.

Results

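The folding machinery of the endoplasmic reticulum was compared between AC29 and AB1, a pair of mouse malignant mesothelioma cell lines, through 10 genes: the chaperones Hspa5 and Hsp90b1, the BiP cofactors Dnajb9 and Sdf2l1, the lectins Calr and Canx, the protein disulfide isomerases Pdia3, Pdia4 and Pdia6, and the transcription factor Xbp1. They were taken by name, as the probe sets whose only annotated gene symbol is among these 10, and each gene was represented by its probe set of highest mean signal across all 6 arrays. All 10 were measured, by 23 of the 34945 probe sets with a single symbol, and they are 10 of 18193 genes in all. AC29 is of CBA origin and was used at passage 60; AB1 is of BALB/c origin and was used at passage 40. The labels give the mice as female and 6 to 8 weeks old. Both lines were untreated, were kept in RPMI medium with 5% foetal calf serum and were harvested at 80% confluency from 3 flasks each, with 1 Affymetrix 3′ expression array per flask. Each line is a single line from its strain, so that line, strain, passage and any processing batch cannot be told apart, and p-values measure the spread between flasks.

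Secreted and membrane proteins fold in the endoplasmic reticulum, where Hspa5, also called BiP, holds unfolded chains with the help of J-domain cofactors. Calnexin and calreticulin retain glycoproteins that are still folding, and disulfide isomerases form and rearrange their cysteine bridges. When unfolded protein builds up, the sensor IRE1 splices the Xbp1 mRNA so that it encodes an active transcription factor, the sensor ATF6 releases its own, and the kinase PERK acts through ATF4; many of the genes described here are known targets of XBP1 or ATF6. A 3′ array reads the total mRNA of a gene, so that spliced Xbp1 was not measured apart from the unspliced form.

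The element through which XBP1 and ATF6 are known to act on chaperone genes, the ER stress response element or ERSE, is shown first because it was looked for in each promoter. It was searched on both strands as CCAAT, any 9 bases and CCACG, in RefSeq windows of 250 bases before to 50 bases after each start site (GRCm38.p6, the C57BL/6J reference and not the strains of these lines). All 10 members had 1 window. Of these, 5 held the element, against 39 of all 32851 windows (0.119%); Hsp90b1 held it in 2 places. The element was defined on promoters of genes such as Hspa5, so its presence is a description and not a result of these arrays. The 6 matches are printed from CCAAT to CCACG with 10 bases on either side, the capitals marking both ends of the element.
Hspa5, chr2:34772015-34772053, plus strand: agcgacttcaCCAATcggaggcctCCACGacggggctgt
Hsp90b1, chr10:86705628-86705666, minus strand: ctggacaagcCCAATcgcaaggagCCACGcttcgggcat
Hsp90b1, chr10:86705523-86705561, plus strand: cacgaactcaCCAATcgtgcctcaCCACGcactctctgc
Calr, chr8:84847065-84847103, plus strand: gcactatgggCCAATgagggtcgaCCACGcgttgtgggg
Canx, chr11:50325790-50325828, minus strand: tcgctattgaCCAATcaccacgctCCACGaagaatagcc
Pdia6, chr12:17266481-17266519, plus strand: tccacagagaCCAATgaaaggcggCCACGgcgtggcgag

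Positions are counted from the start site, with negative numbers before it. For Hspa5 the element began at position -65, for Pdia6 at -98, for Canx at -145, for Hsp90b1 at -212 on the gene strand, and for Calr (-162 to -144) and the other Hsp90b1 match (-107 to -89) it ran on the opposite strand. The promoters of Pdia3, Pdia4, Dnajb9, Sdf2l1 and Xbp1 held no match in this window. Only exact matches were counted, so the search cannot show that a variant of the element is absent from any window. The related element ERSE-II, searched as ATTGG, any 1 base and CCACG, was in none of the 10 windows and in 0.0365% of all windows. The core TGACGTG of the unfolded protein response element was in the window of Hspa5 alone among the 10, and in 2.01% of all windows. CCACG by itself, which is also the end of each ERSE and each ERSE-II, was in 8 of the 10 windows and in 32.8% of all, so that it tells little. The 250 bases before the start site are given for Hspa5, whose level was close in the lines, and for Pdia6, Dnajb9 and Xbp1, whose levels differed; capitals mark CCACG on either strand, both ends of each ERSE and, in Hspa5, the TGACGTG core.
Hspa5, chr2:34771840-34772089, plus strand: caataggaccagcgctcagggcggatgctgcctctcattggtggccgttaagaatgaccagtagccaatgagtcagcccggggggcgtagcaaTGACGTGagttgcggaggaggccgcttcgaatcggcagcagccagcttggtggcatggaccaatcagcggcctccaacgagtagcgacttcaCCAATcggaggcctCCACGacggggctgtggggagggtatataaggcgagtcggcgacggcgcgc
Pdia6, chr12:17266339-17266588, plus strand: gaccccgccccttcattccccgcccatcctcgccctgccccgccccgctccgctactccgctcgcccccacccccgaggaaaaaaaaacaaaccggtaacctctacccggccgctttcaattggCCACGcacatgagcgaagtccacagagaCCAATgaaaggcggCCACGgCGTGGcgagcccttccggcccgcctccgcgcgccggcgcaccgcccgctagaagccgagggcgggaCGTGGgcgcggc
Dnajb9, chr12:44210069-44210318, minus strand: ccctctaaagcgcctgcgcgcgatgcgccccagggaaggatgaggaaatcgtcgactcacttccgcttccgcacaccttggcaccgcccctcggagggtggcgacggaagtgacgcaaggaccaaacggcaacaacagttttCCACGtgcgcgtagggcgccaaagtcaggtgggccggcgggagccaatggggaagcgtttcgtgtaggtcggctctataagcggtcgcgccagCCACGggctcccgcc
Xbp1, chr11:5520391-5520640, plus strand: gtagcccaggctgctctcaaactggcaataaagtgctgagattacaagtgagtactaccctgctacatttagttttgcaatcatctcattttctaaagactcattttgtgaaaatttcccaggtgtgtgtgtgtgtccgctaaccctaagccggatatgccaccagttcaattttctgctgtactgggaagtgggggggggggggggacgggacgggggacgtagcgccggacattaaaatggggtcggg

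**Figure D1:**
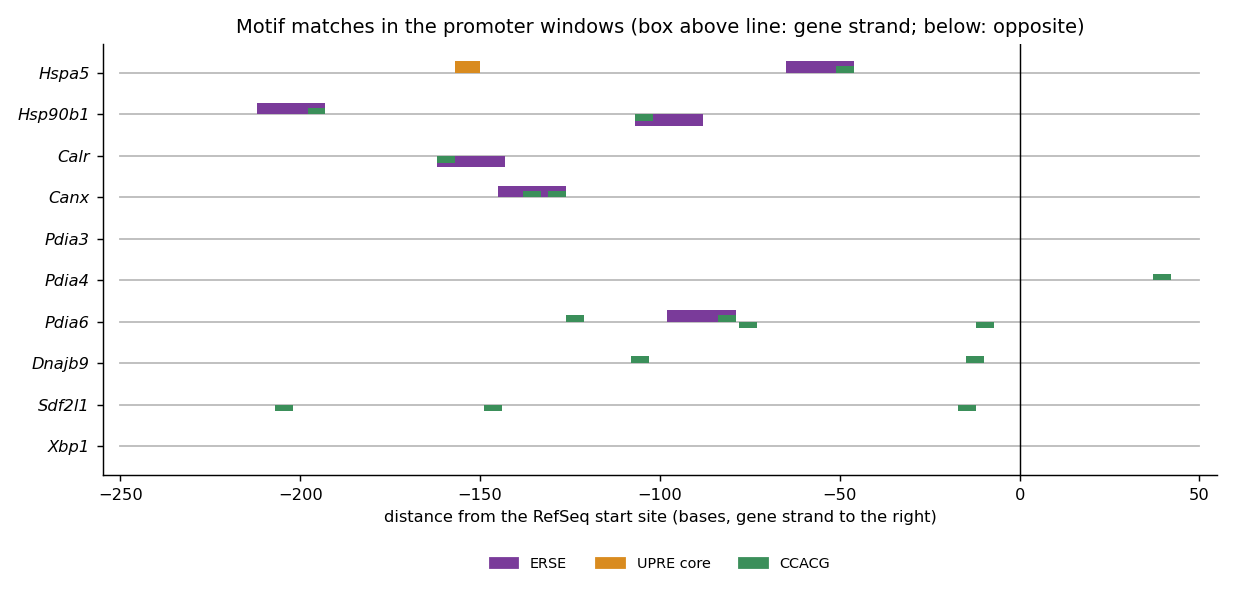
Positions of the motif matches in the promoter windows of the 10 genes. The horizontal axis is the distance from the RefSeq start site in bases, each row is a gene, boxes above a row lie on the gene strand and boxes below on the opposite strand. The ERSE stands in 5 rows, with 2 places for Hsp90b1; Pdia3 and Xbp1 have no match to any of these motifs.

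The values below are log2 RMA intensities as deposited, and differences are AC29 minus AB1 with 95% intervals from limma. They are compared within a probe set only, since brightness depends on the probes. The highest value of the table was 14.65, and signals near the top of the scale are compressed, so that differences of the brightest members may be understated. All 10 genes were above a background floor of 6.07 in both lines, set at the 95th percentile of probe sets for odorant, vomeronasal and taste receptors. Within a line, Pearson's r across genes was 0.995 to 0.998, and between lines 0.937 to 0.938. The 3′ minus 5′ signal of the actin control was 0.22 to 0.32 in AC29 and 0.12 to 0.18 in AB1. That of the Gapdh control was -0.14 to -0.10 in AC29 and -0.16 to -0.14 in AB1. The part of RNA quality or labelling in the differences was not tested. Replicate 14 of AC29 stood apart on the second principal component, which held 2.86% of the variance; its signal from the central 18S rRNA probe set was 8.53, while the remaining AC29 arrays had 7.43 to 7.87 and the AB1 arrays 7.64 to 7.91. Without that array the numbers of members called, and of those past the adjusted p alone, were the same.

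In AC29, Dnajb9 and Pdia6 were each about 2-fold lower than in AB1 and Xbp1 was 1.74-fold lower, while Hspa5, Hsp90b1, Calr and Canx differed by at most 0.13 on the log2 scale. A gene was called where limma gave an adjusted p under 0.05 and the lines differed at least 2-fold, which 2 of the 10 genes met. Both were lower in AC29, a direction in which 5.82% of all genes were called. At an adjusted p under 0.05 with no minimum difference, 3 were lower in AC29 and 0 were higher, against 20% and 19.1% of all genes, and at an unadjusted p under 0.05 the counts were again 3 and 0. The median difference of the 10 was -0.15, against -0.0047 over all genes. For 4 of the 10 the values of AC29 and AB1 were fully separate, 3 of them lower in AC29 and 1 higher; over all genes 50.1% did not overlap, made up of 25.4% lower in AC29 and 24.8% higher. The shares over all genes include genes below the floor, while all 10 genes described here were above it. In RNA of a whole culture, fewer cells with a transcript and less of it per cell cannot be told apart.

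**Figure D2:**
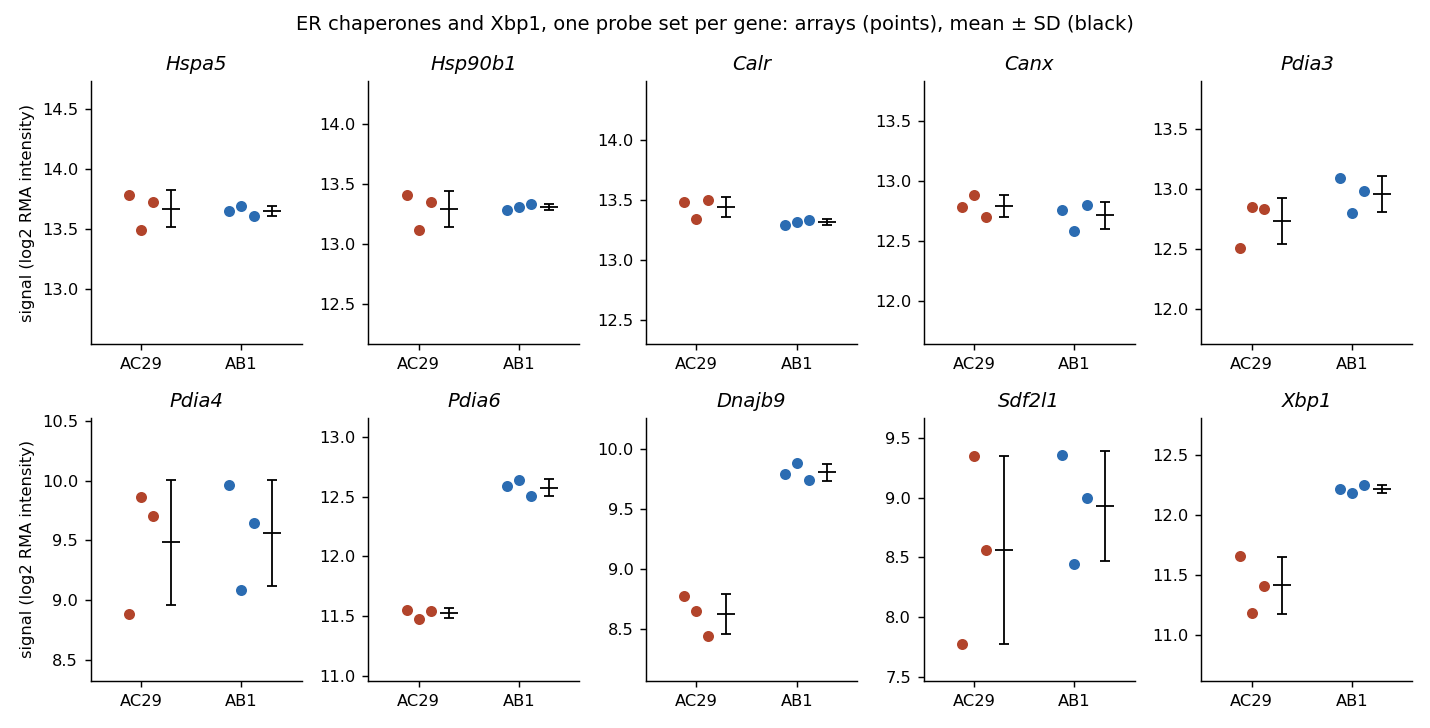
Signal of the 10 genes on each array. Points are arrays in log2 RMA intensity, AC29 in red and AB1 in blue, and black marks are the mean and SD (n = 3); every panel spans 2.2 log2 units. Pdia6, Dnajb9 and Xbp1 have all AC29 arrays below all AB1 arrays, whereas Sdf2l1 and Pdia4 spread widely within both lines.

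Hspa5 encodes BiP, the Hsp70 chaperone of the endoplasmic reticulum. It read 13.78, 13.49 and 13.73 in AC29 replicates 13, 14 and 15, against 13.65, 13.69 and 13.61 in AB1 replicates 4, 5 and 6. The AB1 values fall inside the AC29 range. The difference was 0.02 (interval -0.20 to 0.24; limma adjusted p = 0.915). Hsp90b1 encodes GRP94, the Hsp90 chaperone of the compartment, which folds integrins and Toll-like receptors. It read 13.40, 13.12 and 13.35 in AC29 against 13.28, 13.31 and 13.33 in AB1, with a difference of -0.02 (interval -0.23 to 0.20; limma adjusted p = 0.926). The arrays overlapped, and for both chaperones AC29 replicate 14 was the lowest of its line. The sign of so small a difference is not fixed: it turned for Hspa5 when the arrays were centred on their medians and for Hsp90b1 with array weights.

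Dnajb9 encodes ERdj4, a J-domain protein that stimulates BiP, binds IRE1 and serves the removal of misfolded proteins. It read 8.77, 8.64 and 8.44 in AC29 against 9.79, 9.88 and 9.75 in AB1. Every AC29 array was below every AB1 array. Dnajb9 was 2.28-fold lower in AC29, a log2 difference of -1.19 (interval -1.42 to -0.95; limma adjusted p = 1.54e-05). It has a single probe set, so no other probe set could check it. Sdf2l1 encodes a partner of the cofactor ERdj3 that keeps BiP clients soluble. It read 7.78, 9.35 and 8.56 in AC29 against 9.36, 8.44 and 8.99 in AB1. The flasks of each line differed by more than the lines did. The difference of -0.37 had a wide interval (-1.18 to 0.45; limma adjusted p = 0.490), which holds both no difference and a 2-fold one, and without AC29 replicate 13 it was 0.024. It too has a single probe set.

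Calr encodes calreticulin, the soluble lectin, which also stores calcium. It read 13.48, 13.35 and 13.50 in AC29 against 13.29, 13.32 and 13.34 in AB1. The arrays did not overlap, though the lowest AC29 array and the highest AB1 array were nearly equal. The difference was 0.13 (interval -0.06 to 0.32; limma adjusted p = 0.281). Canx encodes calnexin, the membrane-bound lectin. It read 12.79, 12.89 and 12.70 in AC29 against 12.76, 12.58 and 12.80 in AB1 and the arrays overlapped, with a difference of 0.08 (interval -0.14 to 0.29; limma adjusted p = 0.596). The intervals of both lectins exclude a 1.5-fold difference in either direction.

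Of the 3 disulfide isomerases, 1 was called. Pdia6, also called P5, acts on BiP clients and is known to bind IRE1. It read 11.55, 11.48 and 11.54 in AC29 against 12.59, 12.64 and 12.50 in AB1. The replicates were tight, with SDs of 0.04 in AC29 and 0.07 in AB1 (n = 3 each) and the smallest pooled SD of the 10 genes, and the lines did not overlap. Pdia6 was 2.07-fold lower in AC29 (difference -1.05, interval -1.23 to -0.86; limma adjusted p = 7.33e-06). Its interval reaches below 2-fold, and on the mean of its probe sets the difference was -0.36, which passed the adjusted p (0.00778) but not the 2-fold minimum. Pdia3, or ERp57, works on glycoproteins held by calnexin and calreticulin and in the loading of MHC class I. It read 12.51, 12.85 and 12.84 in AC29 against 13.10, 12.80 and 12.99 in AB1 and the arrays overlapped (difference -0.23, interval -0.50 to 0.05; limma adjusted p = 0.185). Pdia4, or ERp72, has extra thioredoxin-like domains. It read 8.89, 9.86 and 9.71 in AC29 against 9.96, 9.08 and 9.64 in AB1, and again the flasks differed more than the lines (difference -0.08, interval -0.70 to 0.55; limma adjusted p = 0.873).

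Xbp1, the transcription factor of the IRE1 branch, read 11.66, 11.18 and 11.41 in AC29 against 12.22, 12.18 and 12.25 in AB1. All AC29 arrays were lower, and on the representing probe set they spread more (SD 0.24 in AC29 and 0.03 in AB1, n = 3 each). The level was 1.74-fold lower in AC29 (difference -0.80, interval -1.07 to -0.53; limma adjusted p = 0.000557), which passed the adjusted p and not the 2-fold minimum. Leaving out any 1 array gave differences between -0.92 and -0.68. Without probe sets marked s, x or a, whose probes can match several transcripts, Xbp1 rests on a dim one and the difference was -0.29 (limma adjusted p = 0.0208).

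The other probe sets of a gene, 13 for 8 of the 10 genes, served as a check. Xbp1 was lower in AC29 by all 4 of its probe sets at an adjusted p under 0.05 over all probe sets. The other 3 differed by -0.86, -0.88 and -0.29, the last at a mean signal of 6.81 in AC29 and 7.10 in AB1, both within the range that odorant and taste receptor probe sets reach (99th percentile 7.23). The SDs of these 3 were 0.07, 0.11 and 0.05 in AC29 and 0.02, 0.04 and 0.08 in AB1 (n = 3 each). In AC29 they spread less than the representing probe set. The other probe sets of Hspa5 differed by 0.05 and 0.09, those of Calr by 0.12 and 0.09, those of Canx by 0.06 and 0.05, and that of Hsp90b1 by -0.06, none past an adjusted p under 0.05. That of Pdia3 was near the floor (6.01 in AC29 and 6.19 in AB1), and that of Pdia4 was below it on all 6 arrays. The other probe set of Pdia6 read 6.21, 6.58 and 6.22 in AC29 against 6.08, 6.12 and 5.79 in AB1, close to the floor, and differed the other way by 0.34 (limma adjusted p = 0.0832).

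**Figure D3:**
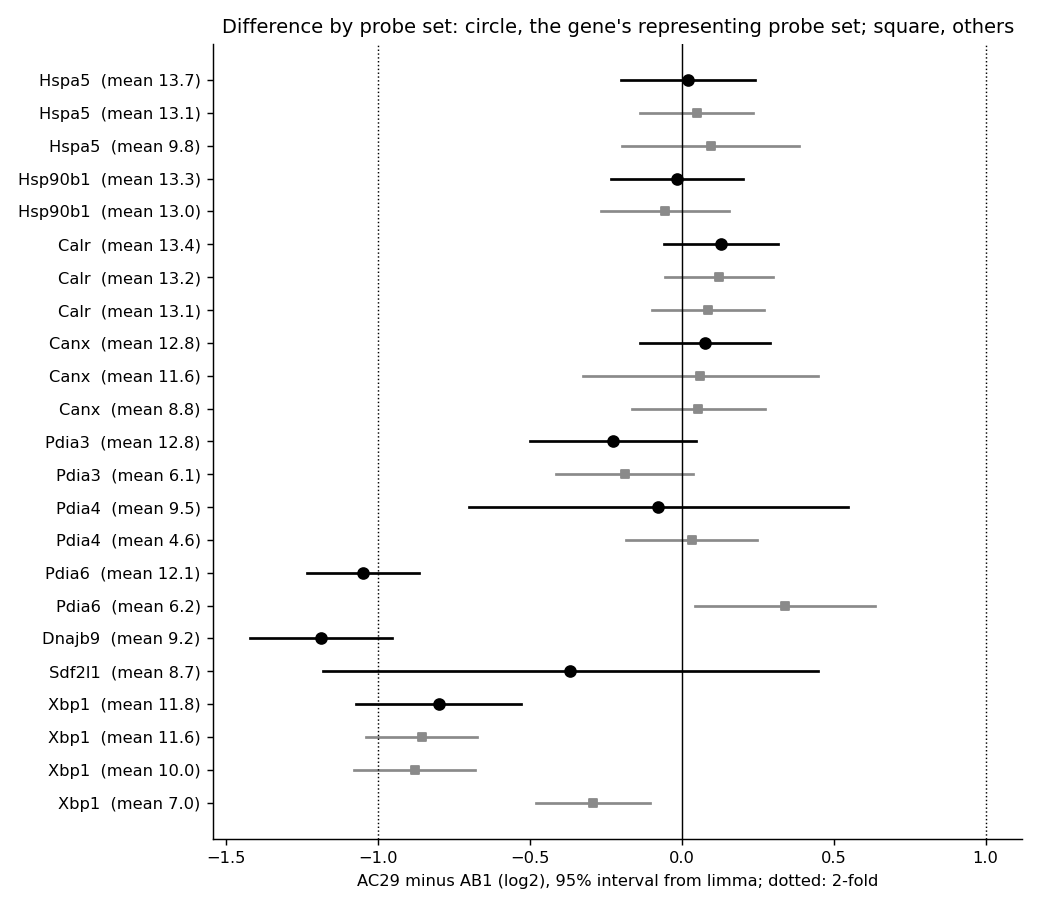
Difference between the lines for each of the 23 probe sets of the 10 genes. The horizontal axis is AC29 minus AB1 on the log2 scale, bars are 95% intervals, circles represent the gene and squares are its other probe sets, with the mean signal over both lines in brackets. The Xbp1 probe sets all lie left of 0, the Hspa5, Calr and Canx probe sets sit near 0, and the dim probe set of Pdia6 lies right of 0 at 0.34.

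The genes also differed in how steady they were from flask to flask. The residual SD within lines, pooled over both, was 0.64 for Sdf2l1 and 0.49 for Pdia4, at percentiles 99.98 and 99.8 of all genes, and 0.06 for Pdia6, at percentile 8.37. Sdf2l1 deviated from its line mean by -0.78, 0.78 and 0.00 in AC29 replicates 13, 14 and 15, and by 0.43, -0.49 and 0.06 in AB1 replicates 4, 5 and 6. Pdia4 deviated by -0.60, 0.38 and 0.22 in AC29 and by 0.40, -0.48 and 0.08 in AB1, and Pdia3 by -0.22, 0.12 and 0.10 in AC29 and by 0.14, -0.16 and 0.03 in AB1. All of these were lowest in AC29 replicate 13 and AB1 replicate 5. On their representing probe sets, Xbp1, Hspa5, Hsp90b1 and Calr were each lowest in AC29 replicate 14, and varied by at most 0.04 in AB1. The other probe sets of Hspa5, Hsp90b1 and Calr were also lowest there within AC29. For Xbp1 this was not repeated, since its other bright probe sets were lowest in AC29 replicate 15 (11.13 and 9.48).

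**Figure D4:**
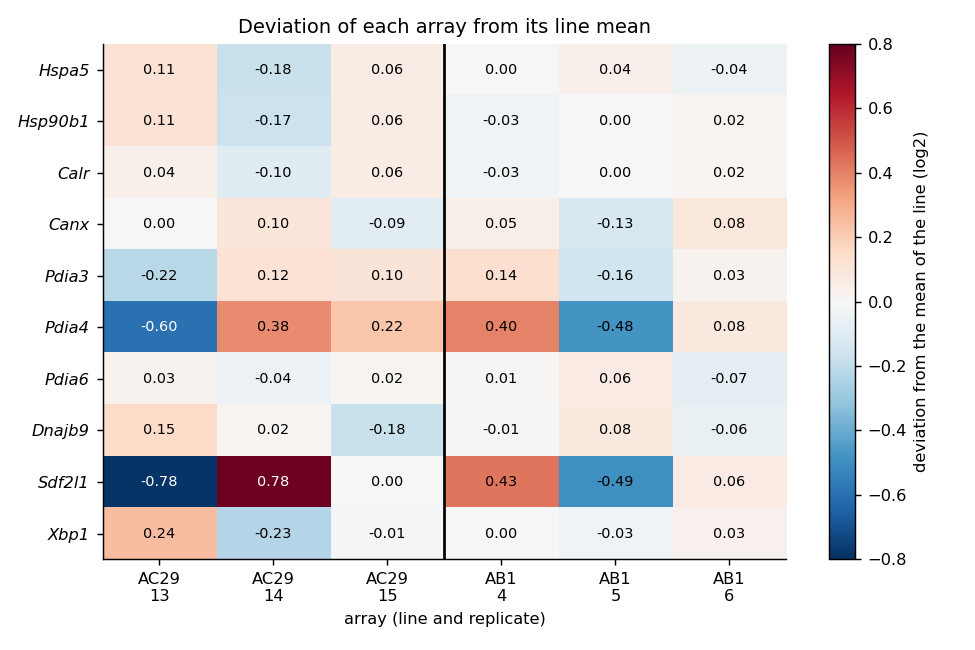
Deviation of each array from the mean of its line for the 10 genes, on the log2 scale. Columns are arrays, AC29 left of the black line and AB1 right of it; red is above and blue below the line mean. Sdf2l1 and Pdia4 share their low arrays, AC29 13 and AB1 5, while Pdia6 stays close to its line means.

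The rest of the secretory pathway, with related stress responses and the chaperones of other compartments, was read from 12 lists with 179 distinct measured genes outside the 10. Of these, 5 were called higher in AC29 and 19 lower, or 2.79% and 10.6%, against 5.12% and 5.82% of all genes. At an adjusted p under 0.05 alone, 37 were higher and 56 lower (20.7% and 31.3%), against 19.1% and 20% of all genes, and the median difference was -0.05. The 9 lists of the secretory pathway and its sensors held 140 of these genes, of which 3 were called higher and 10 lower (2.14% and 7.14%). The other 39 genes, of the PERK and ATF4 branch, the cytosol and mitochondria and the IRE1 list, had 2 called higher and 9 lower (5.13% and 23.1%). Of these 9, 6 were of the PERK and ATF4 branch. At an adjusted p under 0.05 alone, the 140 genes had 30 higher and 41 lower, and the 39 genes had 7 higher and 15 lower. This split of the lists was not planned.

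Among the sensors of ER stress and their kin, 1 of 11 measured genes was called, Creb3l1, which encodes a membrane-bound transcription factor known for its role in collagen secretion. Its signal was 9.54 ± 0.28 in AC29 and 5.15 ± 0.57 in AB1 (SD, n = 3 each), where it was not above the floor, and it was at least 11-fold higher in AC29. Ern1, which encodes IRE1 alpha, the enzyme that splices Xbp1, had a signal of 9.19 ± 0.07 in AC29 and 9.93 ± 0.13 in AB1. This 1.67-fold lower level passed the adjusted p alone (limma adjusted p = 0.000202). The same held for Eif2ak3, which encodes PERK (difference -0.48), for the proteases Mbtps1 (-0.31) and Mbtps2 (-0.85) that cleave ATF6, and for Creb3l2 (-0.998, just short of 2-fold), a paralogue of Creb3l1. Creb3 was higher in AC29 by 0.51. Atf6 (-0.14), Atf6b (-0.22) and Creb3l3 (0.04) did not pass, and Ern2, the IRE1 paralogue of gut epithelium, was below the floor in both lines. The median of the list was -0.22.

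None of the 11 measured BiP cofactors was called in limma, with 3 lower in AC29 at an adjusted p under 0.05 and 0 higher (3 and 1 at an unadjusted p under 0.05). The 3 were Dnajc3 (difference -0.88), which encodes the J-domain protein p58IPK, Sec63 (-0.34), which links BiP to the translocon, and Manf (-0.32), a secreted stress protein that binds BiP; Dnajc3 and Sec63 were named after their values were seen. Dnajc10, a J-domain protein with reductase activity, differed by -0.13 and did not pass. Of 20 disulfide enzymes, 3 were called, all lower in AC29: the oxidase Ero1a, which recharges disulfide isomerases, at 2.92-fold (10.26 ± 0.05 in AC29 and 11.81 ± 0.22 in AB1), the sulfhydryl oxidase Qsox1 at 2.46-fold and Txndc12 at 2.07-fold. P4hb, which encodes the founding protein disulfide isomerase, differed by 0.44 toward AC29 (limma adjusted p = 0.00200) and Selenof by 0.06. In all, 2 of these genes were higher and 5 lower at an adjusted p under 0.05, and the median was -0.02.

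In the glycoprotein folding cycle 2 of 20 genes were called, both lower in AC29. Edem1, which takes misfolded glycoproteins out of the cycle, was 2.44-fold lower (9.35 ± 0.11 in AC29 and 10.64 ± 0.04 in AB1). Uggt1, which returns unfolded glycoproteins to calnexin and calreticulin, was 2.02-fold lower. The oligosaccharyltransferase subunits Rpn1 (-0.12) and Ostc (-0.03) did not pass, and the list held 4 genes higher and 7 lower at an adjusted p under 0.05. Of 20 genes of ER-associated degradation, Herpud1, a stress-induced scaffold of the ubiquitin ligase complex, was called at 2.31-fold lower in AC29 (10.52 ± 0.05 in AC29 and 11.73 ± 0.06 in AB1). At an adjusted p under 0.05 alone, 7 were higher, among them the ATPase Vcp (0.44), and 7 lower, among them Selenos (-0.39).

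Entry, export, prolyl isomerases and collagen folding were covered by 4 further lists. Among 17 genes of translocation and signal peptide cleavage none was called in limma, with 4 higher and 6 lower at an adjusted p under 0.05 (4 and 8 unadjusted); Sec61b, a channel subunit, differed by 0.14 and Spcs1, of the signal peptidase, by -0.28. In ER to Golgi traffic 1 of 22 was called, Kdelr1, which encodes a receptor that returns escaped chaperones, at 2.11-fold lower in AC29. Its relatives Kdelr2 (0.06) and Kdelr3 (0.22), named after their values were seen, did not pass. At an adjusted p under 0.05, 5 were higher, among them the coat protein Sec13 (0.62) and the cargo receptor Surf4 (0.36), and 3 lower. None of 7 prolyl isomerases was called in limma; Ppib (-0.29) was lower and Fkbp7 (named after its value was seen) higher at an adjusted p under 0.05 (1 lower and 2 higher unadjusted), and Fkbp9 differed by 0.24. Collagen folding went both ways, with P3h1 (2.05-fold) and P4ha2 (2.00-fold), which hydroxylate prolines of collagen, called higher in AC29, and their relatives P3h3 (at least 4.46-fold), P3h2 (3.34-fold) and P4ha3 (2.11-fold) called lower; in AC29 the means of P3h2 and P4ha3 were below the floor, with 1 and 2 of 3 arrays above it, so that their folds are set against background. The collagen chaperone Serpinh1 (-0.13) and the galactosyltransferase Colgalt1 (0.22) did not pass.

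The PERK and ATF4 branch had 6 of 17 genes called, all lower in AC29, and a median of -0.76. They include Vldlr (30.8-fold, against an AC29 mean below the floor with 2 of 3 arrays above it), the stress regulator Nupr1 (12.2-fold), the glutathione-degrading enzyme Chac1 (11.7-fold) and the phosphatase subunit Ppp1r15a (3.57-fold); Atf4 itself was lower by the adjusted p alone (-0.76) and Slc3a2 (-0.15) did not pass. Among 16 chaperones of the cytosol and mitochondria, Hspb1 was called higher in AC29 (10.6-fold), and the small heat shock protein Cryab (2.59-fold) and the stress-inducible Hspa1b (16-fold, against an AC29 mean below the floor with 1 of 3 arrays above it) lower, whereas the constitutive Hspa8 (0.13) and the inducible Hsp90aa1 (0.00) did not pass. Of 6 measured genes tied to IRE1 cleavage or Xbp1 ligation, the ligase Rtcb differed by 0.13 and did not pass, Col6a1 was 7.05-fold higher, Pdgfrb at least 8.21-fold lower, and Sparc differed by 0.91.

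**Figure D5:**
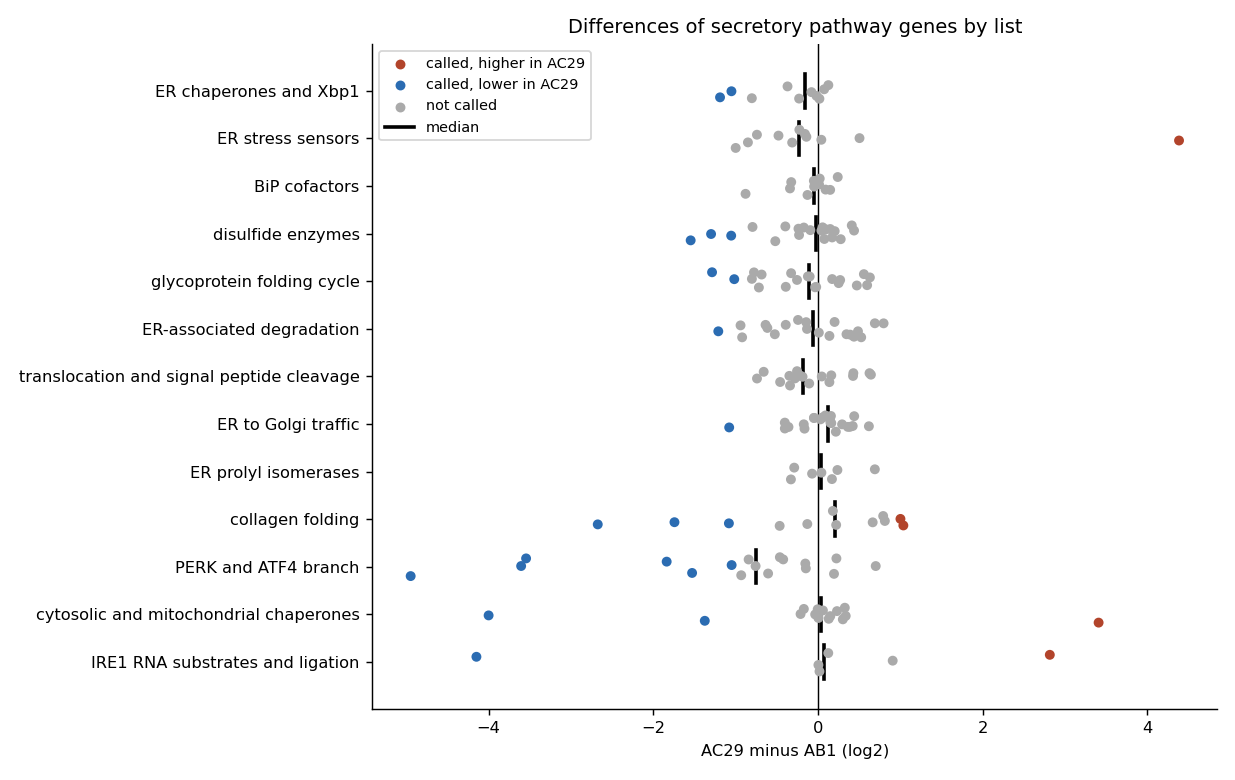
Differences between the lines for the 10 genes, in the top row, and for the 12 lists of the secretory pathway and its stress responses. The horizontal axis is AC29 minus AB1 on the log2 scale, each point is a gene, and black ticks are medians. The PERK and ATF4 branch has the median farthest from 0, at -0.76, and the top row has 2 genes called lower and none called higher in limma.

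The genes of these lists whose 6 values, centred on the gene mean, lay nearest to those of Xbp1 were Ddit4 (root mean square distance 0.094), Mbtps2 (0.106), Sel1l (0.131), Os9 (0.132) and Uggt1 (0.143). By this choice their line differences are close to that of Xbp1, at -0.93, -0.85, -0.92, -0.94 and -1.02. The distances rest on the representing probe set of Xbp1 alone. Sel1l and Os9 act in ER-associated degradation, Mbtps2 cleaves ATF6, Uggt1 serves the glycoprotein cycle, and Ddit4 restrains mTOR signalling.

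The lines also differed in the markers of their cell of origin. Of 12 mesothelial markers, all 12 were above the floor in AC29 and 5 in AB1, where Wt1, Upk3b, Upk1b, Krt8, Bnc1, Lrrn4 and Gpm6a were not above it. The summed signal of the list ran from 15.43 to 15.59 in AC29 and from 12.68 to 12.89 in AB1 on the log2 scale. Markers of B and plasma cells, in which Xbp1 is known to be high, were not above the floor for 9 of 10 genes in either line, Jchain, Mzb1, Cd79a and Tnfrsf17 included. The remaining one, Sdc1, was 2.63-fold higher in AC29, and the summed signal of the list was 11.14 to 11.47 in AC29 against 10.07 to 10.13 in AB1. Of 12 macrophage and leukocyte markers, 4 were above the floor in AC29 and 4 in AB1. Csf1r, Laptm5 and Cd14 were above it on all arrays, Lyz2 in AC29 and Cd68 in AB1 alone, and Ptprc, Adgre1 and C1qa on none. Cd14 was 3.39-fold lower in AC29, and the list summed to 9.31 to 9.40 in AC29 and 10.01 to 10.07 in AB1. Of 9 endothelial markers, Esam and Kdr were above the floor in both lines and the other 7, Pecam1 and Cdh5 included, in neither. Esam was higher in AC29, and the list summed to 10.59 to 11.11 in AC29 and 8.44 to 8.51 in AB1. Of 10 fibroblast markers, 3 were called higher in AC29 and 1 lower, with sums of 15.01 to 15.27 in AC29 and 14.40 to 14.42 in AB1. The part of these markers in the differences of Dnajb9, Pdia6 and Xbp1 was not tested.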

How the data were processed

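Total RNA of 6 flasks was labelled as biotinylated cRNA and hybridised to 3′ arrays, per the labels' protocols. The deposited table gives 45101 probe sets a log2 value on each array. GCOS, RMA and Partek 6.4 are named, without roles, in the submitters' processing notes. That the authors' values are log2 RMA intensities was taken from these notes and the range. The 64 control probe sets were left out. Of the rest, 34945 had 1 gene symbol in the platform annotation, 932 several and 9160 none; 34741 matched the RefSeq table by Entrez identifier.

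A linear model with line as its term was fitted to all probe sets with limma 3.58.1 in R 4.3.3 (lmFit, eBayes, 2-sided; moderated degrees of freedom 8.92), and p-values were adjusted by Benjamini-Hochberg over 18193 genes, or over 45037 probe sets where single probe sets are compared. The floor is the 95th percentile of 86 probe sets for odorant, vomeronasal and taste receptors. A fold against a line with no array above it is a lower bound. The model was tested on simulated data. No depth applies, and precision is limited by having 3 arrays per line. The members, the lists and the call rule were chosen with earlier results of these data known. Named were the 10 members, each list's largest calls (up to 4 per direction) and its 2 brightest genes not called, every stress sensor and the 5 genes nearest to Xbp1. The alternatives were other scalings, filters, probe set choices, variance models and thresholds, and leaving out each array. Protein sequences and scan dates were not used here.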

Additional observations from a re-analysis of the deposited data

How the results depend on the processing

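Under 15 alternatives, Dnajb9, Pdia6 and Xbp1 were lower in AC29 at the adjusted p threshold in each one in which it was recomputed. The log2 difference itself could not move where only the tested genes, the eBayes options or the p threshold changed. Nor could it move for Dnajb9 and Sdf2l1 under other probe set choices, since each has 1 probe set. With these cases included, 128 of 137 differences of the 10 genes kept their direction and their side of the threshold. The other 9 changed sign, all in 4 genes that never passed: Hspa5 with arrays centred on their median (-0.00023), without AC29 replicate 13 (-0.038), without AC29 replicate 15 (-0.012) and without AB1 replicate 6 (-0.00043); Hsp90b1 with array weights (0.032) and without AC29 replicate 14 (0.070); Pdia4 without AC29 replicate 13 (0.22) and without AB1 replicate 4 (0.12); Sdf2l1 without AC29 replicate 13 (0.024). Without single arrays the differences ran from -0.038 to 0.107 for Hspa5, -0.073 to 0.070 for Hsp90b1, -0.317 to 0.221 for Pdia4 and -0.760 to 0.024 for Sdf2l1. The cause was not tested.

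Members called lower in AC29 were 1 on the mean of probe sets, since Pdia6 then averages in a probe set near the floor, and 3 at a 1.5-fold minimum, where Xbp1 passed too; leaving out an array gave 2 in each case. Pathway genes called higher in AC29 were 3 without s, x and a probe sets, where fewer genes are tested, 18 at a 1.5-fold minimum and 3 to 5 without single arrays, the 3 being without AB1 replicate 6. Those called lower were 15 without s, x and a probe sets, 16 on the mean of probe sets, 38 at a 1.5-fold minimum and 18 to 22 without single arrays. All 10 genes stayed above the floor at percentiles 90 and 99. No paired analysis was possible because the lines share no replicate number.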

Other observations

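The other genes with an ERSE in their promoter window are given here as values. Of 37 genes with such a window 20 were measured, 5 of them among the 10 genes described above. Of the other 15, none was called in limma in either direction, 2 were lower in AC29 at an adjusted p under 0.05, 1 was higher (2 and 3 at an unadjusted p under 0.05), and 5 lay below the floor in both lines, where no difference could be seen. Over all genes 5.82% were called lower and 5.12% higher, and 20% were lower and 19.1% higher at the adjusted p alone, so that counts among so few genes stand near the background. Dnajc3 (difference -0.88) and the mannosyltransferase Alg12 (-0.39) were lower, and Syvn1, the ubiquitin ligase of ER-associated degradation, was higher (0.35). Creld2, a secreted stress protein, differed by 0.15 and the oxidase Ero1b by -0.24, and neither passed. The median difference of these 15 was -0.03. This set was chosen by sequence after the values of the 10 genes had been seen.

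A wide flask-to-flask spread like that of Sdf2l1 and Pdia4 was also seen in some genes of other functions. Otub1, a deubiquitinase, deviated by -0.95, 1.01 and -0.06 in AC29 replicates 13, 14 and 15 and by 0.63, -0.70 and 0.07 in AB1 replicates 4, 5 and 6. The splicing regulator Hnrnpl deviated by -0.62, 0.37 and 0.25 in AC29 and by 0.39, -0.44 and 0.05 in AB1, and the actin-binding Pfn1 by -0.72, 0.54 and 0.17 in AC29 and by 0.23, -0.30 and 0.07 in AB1. The signs of Sdf2l1 on AC29 replicates 13 and 14 and AB1 replicates 4 and 5 were sought in genes with a mean over 8. Of 6741 such genes, 13.5% had them. Among the 115 of these with a residual SD over 0.3, 44 had them (38.3%), Sdf2l1 and Pdia4 included. Signs say nothing of size: Uqcc2, among the 44, deviated by only 0.06 and -0.0008 in AB1 replicates 4 and 5. The share that chance would give was not estimated. Otub1, Hnrnpl and Pfn1 were picked after their values had been seen, and the source of the spread was not tested.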
